A study of Mus musculus with 13 samples.

Results

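Histone genes were followed in glomeruli from a mouse model of THSD7A-associated membranous nephropathy (MN), a disease in which antibodies bind podocytes, the epithelial cells that cover the glomerular capillaries. Members were the rows of the deposited table whose symbol follows the histone nomenclature (H1f, H2ac, H2bc, H3c, H4c and related stems) and whose TPM, an abundance per length scaled to a fixed total per library, was above 0 in at least 4 of the 13 libraries. The pattern matched 87 of 35967 symbols, and 65 of them were members. Of these, 51 are replication-dependent histones, 8 are variant histones (H1f0, H1f10, H2aj, H2ax, H2az1, H2az2, H3f3a and H3f3b), and 6 are germline-type genes or pseudogenes. All mice were wildtype Balb/c mice that received an intraperitoneal injection of 2 mg of rabbit IgG, and each library came from glomeruli collected from the kidney on magnetic beads. Control mice received preimmune IgG (n = 5), and MN mice received anti-THSD7A IgG and were killed at day 1 (day 1 MN, n = 4) or day 5 (day 5 MN, n = 4). Controls of both days formed 1 group, and neither the labels nor the methods give the day of each control mouse. The methods describe the mice injected for MN as adult males, in a sentence on the knockout lines and their littermates, and give no separate age for the sequenced mice.

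Histones are the proteins around which DNA is wrapped in nucleosomes. H2A, H2B, H3 and H4 form the core of the nucleosome, and H1 binds the linker DNA between nucleosomes. Replication-dependent histones supply new chromatin during DNA synthesis, and their mRNAs classically end in a conserved stem-loop, bound by the protein SLBP, instead of a poly(A) tail. Variant, or replacement, histones are made throughout the cell cycle from polyadenylated mRNAs and serve particular tasks, such as H2A.X at DNA breaks, H2A.Z at promoters and H3.3 at active chromatin. Podocytes are known as cells that rarely divide.

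The stem-loop separates the members by RNA type, so the sites of the genes on which the results turn are printed with 5 flanking bases on each side. Each site was read from the GRCm39 genome within 120 bases after the stop codon, with the 16 bases of the stem and loop in capitals and T in place of U.
H1f2: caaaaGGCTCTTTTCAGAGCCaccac
H2ac8: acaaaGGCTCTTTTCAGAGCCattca
H2ac15: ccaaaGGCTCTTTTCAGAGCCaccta
H2bc8: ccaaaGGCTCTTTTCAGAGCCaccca
H3c3: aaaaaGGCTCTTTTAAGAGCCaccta
H3c11: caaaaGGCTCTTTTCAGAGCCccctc
H4c8: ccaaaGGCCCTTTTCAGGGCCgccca
H2ax: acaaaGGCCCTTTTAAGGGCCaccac
The site of H2ax lies at chr9:44246532-44246557 on the plus strand, 46 bases after its stop codon. That of H2ac8 lies at chr13:23754837-23754862 on the minus strand, 32 bases after the stop codon. A stem-loop was found in 46 of the 49 replication-dependent members whose locus was matched by symbol, and in 1 of the 8 variants, H2ax, which is known to make both a stem-loop and a polyadenylated mRNA. For comparison, 0.388% of 21656 protein-coding genes held such a site, and 0.0834% of 21575 did so outside the symbol pattern. Of the replication-dependent members, 39 lie on chromosome 13 and 10 on chromosome 3, whereas the variants are scattered over chromosomes 1, 3, 6, 9, 11 and 15.

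The deposited values are TPM from pseudoalignment with kallisto. They retain no read depth, so the depth behind a value was unknown and counting error could not be given. Differences were tested with limma on log2(scaled TPM + 0.5), a scale that understates the change of low genes. A gene was called where its Benjamini-Hochberg adjusted p was under 0.05 and its log2 fold change exceeded 0.5 in size. The 14322 genes tested reached 1 TPM in 4 or more libraries, among them 41 members (31 replication-dependent, 8 variant, 2 pseudogenes). The other 24 members were too low to be tested and are described by their values. Each p-value weighs a difference between group means against the spread between mice within the groups, as estimated by limma. In bulk glomeruli, a change in the number of cells of a type and a change in RNA per cell cannot be told apart.

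All 8 podocyte markers were detected, with summed TPM of 6632 to 8998 in controls, 7036 to 8948 at day 1 and 7339 to 7695 at day 5, and so were the 8 endothelial markers (5659 to 7402, 5602 to 6966 and 6891 to 7312) and the 6 mesangial markers (1951 to 2733, 2250 to 2450 and 2591 to 2770). The 5 parietal epithelial markers summed to 19.6 to 27.1, 24.1 to 30.7 and 26.9 to 31.6 TPM. Of these, 1 was called higher at day 5 against control, beside 2.42% of all genes tested. The 12 leukocyte markers summed to 34.2 to 67.2, 50.5 to 80.7 and 33.8 to 75.6 TPM. The 10 tubular markers summed to 460.5 to 1245 TPM in controls, 933.2 to 1548 at day 1 and 699.3 to 855.4 at day 5. Of these, 2 of 10 were called lower at day 5 than at day 1, beside 1.81% of all genes in either direction. Against control 0 were called, beside 0.0908% of all genes at day 1 and 3.21% at day 5. Their log2 fold changes at day 1 were all above 0, with a median of 0.71 and a range of 0.41 to 1.49. No marker was at 0 in all libraries, and the part of these cell types in the histone values was not tested.

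At day 5, 3 of the 41 tested members were called against control, 2 higher and 1 lower, beside 3.21% of all genes tested (2.42% higher and 0.789% lower). Those called higher were both variants, the linker histone H1f10 and the DNA damage histone H2ax. The gene called lower was the replication-dependent H2A gene H2ac8. An unadjusted p under 0.05 was found for 12 of 41 members (29.3%) and for 2874 of 14322 genes (20.1%).

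H1f10 (ENSMUSG00000044927, chr6:87957403-87958619, minus strand, GRCm39) encodes H1.10, also known as H1X, a replication-independent linker histone. Its annotated transcript is a single exon with no stem-loop and with AATAAA near its end. Its TPM was 9.94, 13.2, 8.89, 10.9 and 5.40 in the 5 control libraries, 10.3, 5.61, 7.27 and 8.16 at day 1, and 14.7, 20.9, 26.2 and 15.6 at day 5. All 4 day 5 libraries lay above every control and every day 1 library, while the control and day 1 values overlapped. The control mean was 9.67 ± 2.88 (SD, n = 5) TPM and the day 5 mean 19.3 ± 5.30 (SD, n = 4). H1f10 was called higher at day 5, and the log2 fold change was 1.01 ± 0.23 (SE) with a limma adjusted p of 0.0176. This call was lost without day 5 MN replicate 2 (log2 fold change 0.96, limma adjusted p = 0.0632) or replicate 3 (0.88, adjusted p = 0.0549).

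H2ax (ENSMUSG00000049932, chr9:44245991-44247374, plus strand) encodes H2A.X, which is phosphorylated around double-strand breaks. Its TPM was 17.5, 20.4, 15.7, 15.01 and 14.9 in controls, 15.3, 15.7, 14.7 and 14.7 at day 1, and 26.4, 26.5, 30.8 and 21.9 at day 5. Every day 5 library exceeded every other library. The mean rose from 16.7 ± 2.33 (SD, n = 5) to 26.4 ± 3.61 (SD, n = 4), with a log2 fold change of 0.68 ± 0.10 (SE) and a limma adjusted p of 0.00125. It was called in each of the 13 fits that left out 1 library. H2ax held 3.81% to 4.81% of the summed TPM of the 4 H2A variants in controls, 3.40% to 4.15% at day 1 and 4.68% to 6.07% at day 5, so it stayed a minor part of that group.

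H2az1 and H2az2 encode the 2 forms of H2A.Z, found at promoters and around transcription start sites. H2az1 had TPM of 254.7, 253.1, 219.9, 247.9 and 216.3 in controls, 283.4, 235.3, 258.7 and 227.9 at day 1, and 284.2, 315.6, 329.8 and 292.2 at day 5. The day 5 libraries lay above all others, by a small margin over day 1 MN replicate 1. Its log2 fold change at day 5 was 0.39 ± 0.07 (SE), with a limma adjusted p of 0.00384 and a size below the fold threshold, so it was not called. H2az2 ranged from 102.7 to 121.1 TPM in controls and from 108.0 to 129.0 at day 5, and the groups overlapped (log2 fold change 0.12, 95% interval -0.09 to 0.33). The difference between these genes was not tested.

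The other variants overlapped between groups or differed by small amounts. H3f3a, one of the genes for H3.3 and the member with the highest TPM, lay between 1103 and 1194 TPM in controls, 1042 and 1163 at day 1, and 1212 and 1271 at day 5. In TPM as deposited, its day 5 libraries stood above all others. After scaling, day 1 MN replicate 1 lay above day 5 MN replicate 3, so the days overlapped. The log2 fold change of H3f3a at day 5, 0.16 (95% interval 0.05 to 0.26), had a limma adjusted p of 0.0830. H3f3b, which encodes the same protein, ranged from 413.5 to 517.2 TPM in controls and from 439.7 to 520.7 at day 5, with a log2 fold change of 0.04 (95% interval -0.16 to 0.25). H1f0, a linker histone typical of differentiated cells, ranged from 166 to 234.2 TPM in controls and from 210.6 to 253.7 at day 5, and the groups overlapped. Its log2 fold change was 0.21 (95% interval 0.02 to 0.39, adjusted p from limma 0.196). H2aj, which encodes H2A.J, ranged from 23.6 to 33.5 TPM in controls and from 25.8 to 34.1 at day 5 (log2 fold change 0.07, 95% interval -0.15 to 0.29). All 8 fitted values were above 0 at day 5 and their median was 0.18, where that of all genes tested was -0.0032.

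**Figure D1:**
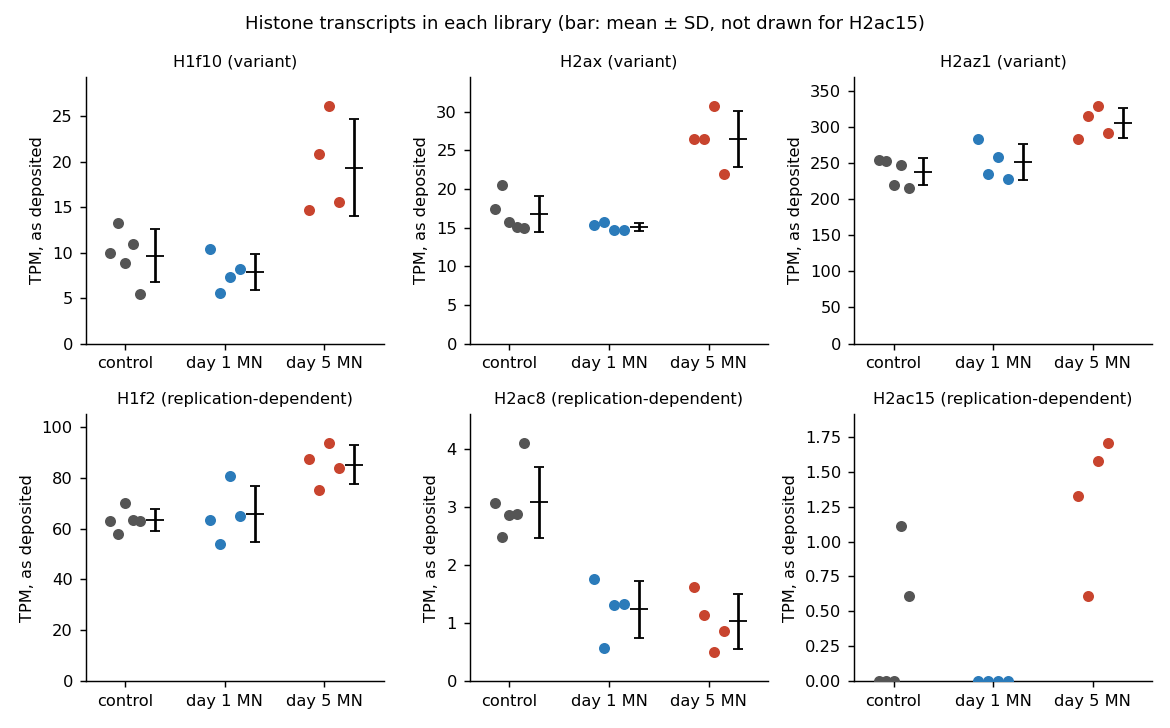
TPM as deposited (vertical axis, starting at 0) of 6 histone genes in each control, day 1 MN and day 5 MN library (points), with the group mean ± SD as a black bar for all but H2ac15. Day 5 points lie above all other points for H1f10, H2ax and H2az1, and above all controls for H1f2, while H2ac8 is lower at both days and H2ac15 is listed at 0 in all 4 day 1 libraries.

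Among replication-dependent histones, 0 of 31 tested members were called higher by limma and 1 was called lower at day 5. Of all genes tested, 2.42% were called higher and 0.789% lower. H1f2 was called higher in 1 of 13 fits that left out 1 library, the fit without day 5 MN replicate 2. H3c11 was called higher in 2 of these 13 fits, as a description only, since its day 5 libraries let it be tested. The median log2 fold change of the 31 members was -0.01, with 15 values above 0 and 16 below, and a range from -1.24 to 1.99. By family, the medians were 0.23 for 2 H1 genes, -0.04 for 8 H2A genes, -0.12 for 7 H2B genes, 0.39 for 6 H3 genes and 0.11 for 8 H4 genes.

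H2ac8 (ENSMUSG00000069272, chr13:23754691-23755394, minus strand) is a replication-dependent H2A gene of low abundance in these glomeruli. Its TPM was 3.08, 2.49, 2.87, 2.89 and 4.11 in controls, 1.76, 0.561, 1.30 and 1.32 at day 1, and 1.62, 1.13, 0.495 and 0.865 at day 5. All 8 MN libraries lay below all 5 controls. The log2 fold change was -1.24 ± 0.27 (SE) at day 5, with a limma adjusted p of 0.0145. At day 1 it was -1.05 ± 0.27 (SE), which did not pass (limma adjusted p = 0.179), and the days overlapped. Of the 31-base words of its transcript, 47.9% also occur in transcripts of other genes, so reads of this family could have been divided between copies.

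H2bc8, an H2B gene, starts 176 bases from H2ac8 on the opposite strand in the GRCm39 annotation, and both genes share 1 promoter stretch. H2bc8 had TPM of 8.67, 6.08, 8.16, 5.42 and 12.7 in controls, 4.49, 8.12, 14.2 and 5.81 at day 1, and 4.71, 2.23, 3.81 and 7.18 at day 5. Its values overlapped between groups, with a log2 fold change of -0.81 (95% interval -1.56 to -0.06) and a limma adjusted p of 0.209 at day 5. The shared stretch is printed because both neighbours had lower fitted values at day 5. It runs from H2ac8 to H2bc8, chr13:23571221-23571399 (plus strand, GRCm38.p6, from RefSeq), with CCAAT boxes, the octamer, the TATA box and the sequence TTTGAA in capitals on either strand.
H2ac8 to H2bc8: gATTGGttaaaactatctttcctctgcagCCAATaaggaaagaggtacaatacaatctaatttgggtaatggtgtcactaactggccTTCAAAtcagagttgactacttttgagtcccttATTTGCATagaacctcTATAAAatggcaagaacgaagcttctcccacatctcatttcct
RefSeq promoter windows, 250 bases before to 50 after the start, were matched for 45 replication-dependent members and 7 variants. CCAAT was found on either strand in 84.4% of the replication-dependent windows and in 37.9% of all 27025 promoters, TATAAA in 55.6% and 14.2%, TTTGAA in 40% and 18.1%, and the octamer ATTTGCAT in 22.2% and 1.75%. The octamer, known from H2B promoters, was in 4 of 8 H2B windows. The other replication-dependent windows that held it were of H2A genes (H2ac4, H2ac6, H2ac8, H2ac12, H2ac20 and H2aw). An E2F-type word, taken as TTCCCGC with TTGGCGC and TTCGCGC as its other accepted forms, was in 13 of 45 replication-dependent windows and in 2 of 7 variant windows, those of H1f10 and H2az1, beside 8.21% of all promoters. None of these words overlap each other in the stretch above.

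The replication-dependent genes with the highest TPM held their level more tightly than the low ones. H2ac19, an H2A gene with the highest mean of the class, ranged from 82.4 to 127.6 TPM in controls, 100.4 to 115.6 at day 1 and 96.5 to 106.1 at day 5 (log2 fold change at day 5 -0.06, 95% interval -0.29 to 0.17). All of its 31-base words occur in other genes, among them H2ac18, so its level is that of a group of copies. H2bc4, an H2B gene, ranged from 53.8 to 83.4 TPM in controls and from 68.0 to 86.5 at day 5 (0.28, 95% interval -0.01 to 0.56). H2aw, H2bc18 and H4c8 had control means of 36.0, 29.9 and 29.8 TPM and day 5 means of 32.6, 29.9 and 23.9 TPM, and their groups overlapped.

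H1f2 was the exception among these. It encodes H1.2, a replication-dependent linker histone, and lies at chr13:23922791-23924350 with only 11.4% of its 31-base words shared. Its TPM was 63.2, 57.9, 70.0, 63.4 and 63.2 in controls, 63.5, 54.0, 80.7 and 64.9 at day 1, and 87.6, 75.3, 93.7 and 84.0 at day 5. Day 5 libraries lay above all controls but overlapped with day 1 MN replicate 3. The log2 fold change at day 5 was 0.45 ± 0.09 (SE), with a limma adjusted p of 0.0114 and a size just under the fold threshold. Without day 5 MN replicate 2 it was called higher (0.50, limma adjusted p = 0.0168). Its annotated transcript continues past the stem-loop and holds the poly(A) signal AATAAA in its last 40 bases, and 7 of the 46 replication-dependent members with a stem-loop, H1f2 included, hold that signal there. With the fold threshold dropped, 5 of 41 members passed at day 5 (H1f10, H1f2, H2ac8, H2ax and H2az1), beside 6.12% of all genes.

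At the low end, the largest positive values came with wide errors. H3c11, an H3 gene, was listed at 0 in 4 of 5 controls and 2 of 4 day 1 libraries, at 1.45 TPM in control replicate 2 and 1.31 and 1.33 TPM in the other day 1 libraries, and at 2.11, 1.87, 5.46 and 0.682 TPM at day 5. Its fitted log2 difference of 1.99 ± 0.59 (SE) did not pass (limma adjusted p = 0.0653). H2ac10 ranged from 0 to 5.89 TPM in controls, 0 to 1.59 at day 1 and 0.684 to 8.31 at day 5, and H4c18 from 0 to 6.43, 0 to 2.74 and 3.11 to 9.30. Neither passed at day 5 (limma adjusted p = 0.291 and 0.432). H3c11 and H2ac10 reached 1 TPM in 4 libraries only when day 5 was counted. The group in which they were high let them be tested, so their tests are a description only. Standard errors of the day 5 change ranged from 0.09 to 0.45 for the 12 replication-dependent members with a mean of at least 10 TPM, and from 0.17 to 0.81 for the 19 below 10 TPM. The median change was -0.05 in the former and 0.10 in the latter.

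**Figure D2:**
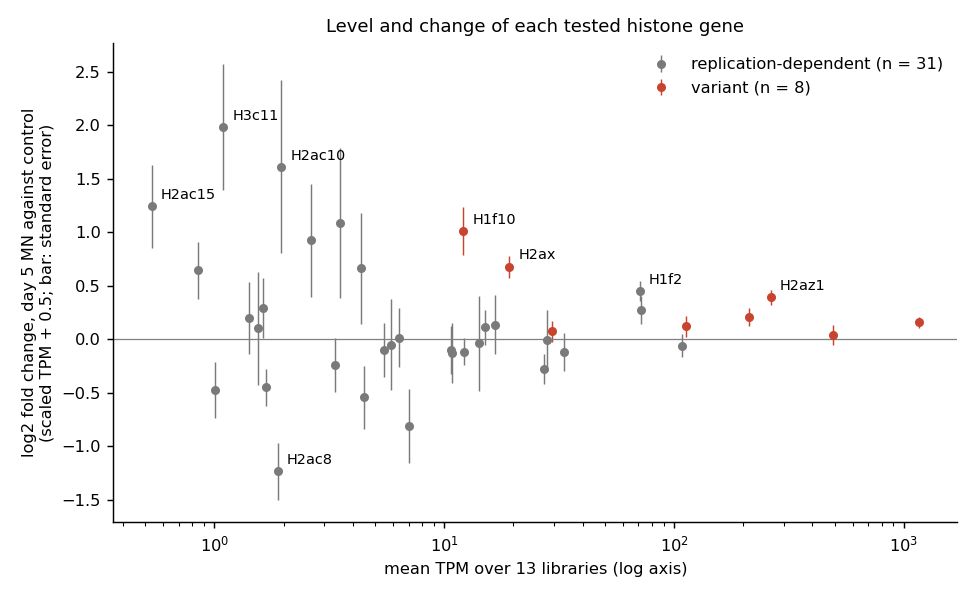
Log2 fold change of day 5 MN against control (vertical axis, scaled TPM + 0.5, bars are standard errors) against the mean TPM over 13 libraries (log axis) for 31 replication-dependent (grey) and 8 variant (red) histones. Grey points scatter around 0 with bars that widen towards low TPM, from -1.24 for H2ac8 to 1.99 for H3c11, while all red points lie above 0.

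At day 1, 0 of 41 members were called against control in the limma fit, beside 0.0908% of all genes tested, and an unadjusted p under 0.05 was found for 2 of 41 members (4.88%) and for 1799 of 14322 genes (12.6%). The fitted values of the replication-dependent members had a median of -0.24, with 20 of 31 below 0. For the variants the median was 0.05, and the largest size was -0.22, for H1f10. The replication-dependent median was -0.43 without day 1 MN replicate 3, -0.07 without replicate 1, -0.10 without replicate 4, and -0.15 and -0.14 without control replicates 1 and 3, so single libraries set its size. The day 1 and day 5 comparisons share the 5 control libraries.

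These libraries differed among themselves. Day 1 MN replicate 3 had the highest value of all 13 libraries in 14 of 31 replication-dependent members, and lay above the control mean in 26 of 31, with a median deviation of 0.46 log2 units. Day 1 MN replicates 1 and 4 lay below the control mean in 24 and 23 of 31, with medians of -0.57 and -0.38, and replicate 2 in 23 of 31 with -0.18. Day 5 MN libraries had medians of 0.14, -0.18, -0.09 and 0.11, close to those of controls (-0.13 to 0.12). The variants showed no such split at day 1, with medians of 0.17, -0.01, 0.01 and 0.00. S phase genes summed to 447.1 TPM and G2 and M phase genes to 32.2 TPM in day 1 MN replicate 3, both within the control ranges. Its tubular markers summed to 933.2 TPM, the lowest of day 1.

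**Figure D3:**
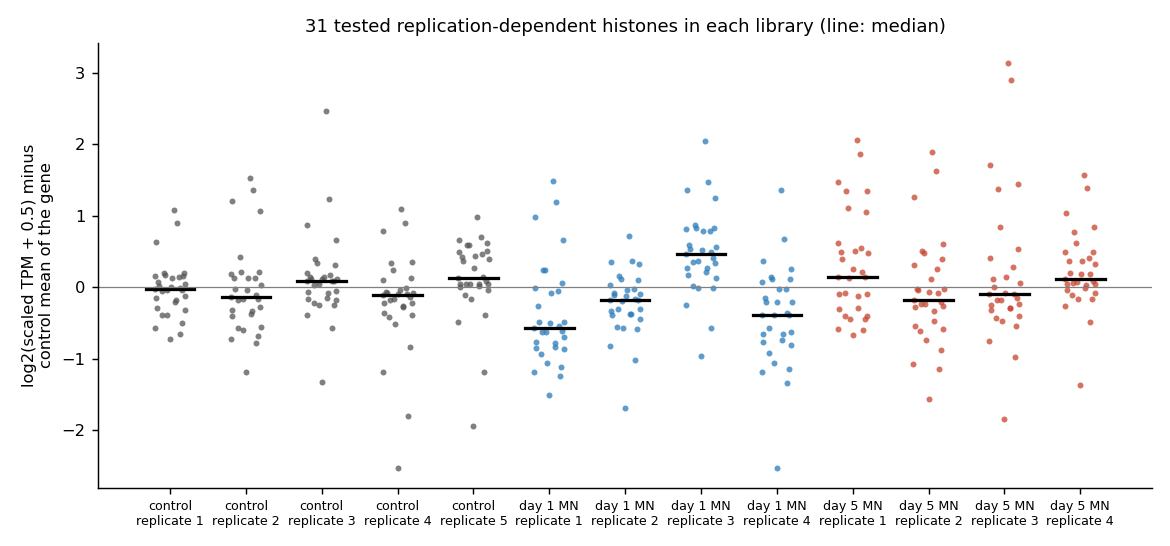
Deviation of each of 31 tested replication-dependent histones from its control mean (vertical axis, log2 scale of scaled TPM + 0.5) in each of 13 libraries (points), with the library median as a black line. Day 1 MN replicate 3 is shifted upward (median 0.46) and day 1 MN replicates 1 and 4 downward (-0.57 and -0.38), while day 5 medians stay between -0.18 and 0.14.

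Between day 1 and day 5, 3 of 41 members were called, all higher at day 5, beside 1.81% of all genes in either direction and 1.41% higher. H2ax differed by 0.77 ± 0.11 (SE) log2 units (limma adjusted p = 0.00118) and H1f10 by 1.23 ± 0.24 (SE) (limma adjusted p = 0.0144). The call of H1f10 was lost without day 1 MN replicate 2 (limma adjusted p = 0.0522) and without day 5 MN replicate 2 (0.0536) or 3 (0.0507). These comparisons share their day 5 libraries with those against control. The third was H2ac15, an H2A gene at chr13:21937605-21937997, listed at 0 in all 4 day 1 libraries and in 3 of 5 controls, with 1.11 and 0.606 TPM in the others. At day 5 it had 1.32, 0.612, 1.58 and 1.71 TPM, all above day 1 and overlapping with control. It entered the test through libraries of at least 1 TPM, 3 of day 5 and 1 control, so the group in which it was high let it be tested and its call is given as a description only. The call was lost in 7 of 13 fits without 1 library, and with day 1 at 0 no fold is given.

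Summed over all 51 members, replication-dependent TPM did not differ beyond the spread between mice. The sum, after scaling, was 465.2, 445.8, 503.6, 420.8 and 547.6 in controls, 396.0, 446.3, 607.7 and 422.1 at day 1, and 527.6, 464.4, 486.7 and 535.7 at day 5. The group means were 476.6 ± 49.9 (SD, n = 5), 468.0 ± 95.4 (SD, n = 4) and 503.6 ± 33.8 (SD, n = 4), and the groups overlapped. H2ac19 was the largest contributor.

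The variants summed to 2253, 2271, 2118, 2171 and 2127 in controls, 2504, 2135, 2199 and 2250 at day 1, and 2502, 2561, 2416 and 2387 at day 5. All day 5 libraries lay above all controls, and day 1 MN replicate 1 was as high as day 5. The means were 2188 ± 70.7, 2272 ± 162 and 2466 ± 79.4, so the day 5 mean was 112.7% of the control mean, or 113.9% without H3f3a. For the replication-dependent sum it was 105.7%, or 108.9% without H2ac19. In every library, variants held most of the histone TPM, 79.3% to 83.5% in controls, 78.1% to 86.1% at day 1 and 81.2% to 84.4% at day 5. H3f3a and H3f3b made up 97.1% to 98.3% of H3 TPM in controls and 97.5% to 98.2% at day 5.

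After scaling, sums by family separated day 5 from control for replication-dependent H1, variant H2A and variant H3, as a description with no test. Replication-dependent H1 summed to a mean of 69.4 ± 5.86 scaled TPM in controls and 92.9 ± 7.17 at day 5, with ranges of 61.7 to 77.3 and 83.8 to 100.3 that did not overlap. Without H1f2 the means were 7.03 and 7.35. Variant H2A genes summed to 389.1 ± 16.6 in controls and 483.8 ± 13.9 at day 5, with ranges of 364.8 to 407.9 and 463.8 to 495.9, and H2az1 was the largest of them. Without H2az1 the ranges overlapped (142.2 to 167.8 and 164.5 to 198.4). Variant H3 sums ranged from 1550 to 1641 in controls and from 1659 to 1819 at day 5. With TPM as deposited the variant H3 sums overlapped (1534 to 1693 and 1691 to 1772). Without H3f3a they overlapped as well (421.4 to 505.4 and 435.8 to 534.5). Variant H1 and the replication-dependent H2A, H2B, H3 and H4 sums overlapped between these groups.

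**Figure D4:**
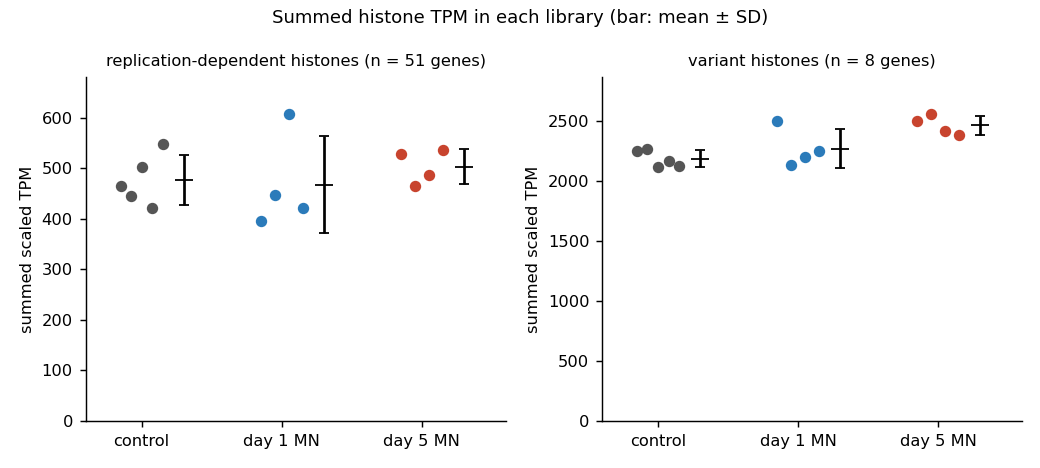
Summed scaled TPM (vertical axes, starting at 0) of 51 replication-dependent (left) and 8 variant (right) histones in each library (points), with mean ± SD as black bars. Replication-dependent sums overlap between groups, with day 1 MN replicate 3 highest at 607.7, whereas all day 5 variant sums lie above the control maximum of 2271.

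Of the members too low to test, 20 were replication-dependent, and their summed TPM ranged from 5.08 to 7.87 in controls, 2.34 to 9.26 at day 1 and 5.80 to 11.3 at day 5, with 10 to 15, 9 to 14 and 11 to 15 of 20 above 0. Some of these genes are given here, chosen after their values were seen. H3c3, an H3 gene, was listed above 0 in 1 of 5 controls (0.256 TPM), in 0 of 4 day 1 libraries and in 4 of 4 day 5 libraries (0.239, 0.862, 0.562 and 0.622 TPM). H2ac24, an H2A gene, was highest among controls in replicate 5 (0.358 TPM), was listed at 0 in all 4 day 1 libraries, and had 1.07, 1.82, 0.00011 and 1.42 TPM at day 5. H3c8, another H3 gene, had 0.297, 2.48, 1.99, 0 and 0.291 TPM in controls and at most 0.298 TPM in any MN library, so the groups overlapped. When every gene above 0 in at least 4 libraries was tested, H1f10, H2ax and H2ac8 were again called at day 5, where 2.27% of 19890 genes were. H3c3 reached that filter through its day 5 libraries, the group in which it was high, so no test of it is given.

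Just outside the rule, H1f5 and H2bc14 were listed above 0 in 3 libraries each, all of day 5, with at most 0.730 and 0.670 TPM. H2bc13 and H4c2 were also above 0 in 3 libraries, with at most 0.795 and 1.18 TPM. Just inside the rule, H1f6, H2ac5-ps, H2bc11 and H2af-ps1 were above 0 in 4 libraries, with at most 0.431, 2.22, 0.662 and 6.87 TPM.

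Sequence sharing bears on these values. A median of 61.9% of the 31-base words of a replication-dependent transcript occurred in another gene, and 31 members shared at least 50%, against a median of 20.4% and 1 gene for the variants. The 16 tested replication-dependent members with at least 50% had a median log2 fold change of 0.06 at day 5 with 0 called, and the 14 below 50% had -0.05 with 1 called. By stem-loop, the 30 tested members that hold one had a median of 0.06 and 1 call in each direction (H2ax and H2ac8), and the 8 without had 0.14 and 1 call (H1f10).

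Histone mRNA processing genes cut, carry and degrade the stem-loop mRNAs. Of 25 genes in this list, 24 were tested and 0 were called against control at either day in limma. Of all genes tested, 0.0908% were called at day 1 and 3.21% at day 5. The median log2 fold change of the list at day 5 was 0.06. Slbp, which binds the stem-loop and accompanies these mRNAs through processing and translation, had TPM of 37.1, 40.7, 40.4, 43.6 and 36.1 in controls and 49.5, 44.1, 56.0 and 52.4 at day 5. All day 5 values were above all controls, at 0.38 ± 0.06 (SE) log2 units with a limma adjusted p of 0.00283, under the fold threshold. Npat, the histone gene coactivator, had means of 9.86 in both groups (log2 fold change 0.03). Casp8ap2, a histone locus body protein, ranged from 13.5 to 27.3 TPM in controls and from 8.26 to 15.7 at day 5, with a log2 fold change of -0.69 and a limma adjusted p of 0.0646.

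Histone chaperones carry histones to DNA and place them. Of 34 tested, 4 were called higher and 1 lower at day 5, beside 2.42% and 0.789% of all genes tested. The list median was 0.07. Of those called higher, 3 are described here. Chaf1a, a subunit of the replication-coupled assembly factor CAF-1, rose from a mean of 2.35 ± 1.41 (SD, n = 5) to 6.09 ± 1.64 (SD, n = 4) TPM (log2 fold change 1.31, limma adjusted p = 0.00781). Mcm2, a helicase subunit that also binds H3 and H4, rose from 10.8 ± 0.926 to 22.9 ± 5.24 TPM (1.06, limma adjusted p = 0.00082). Mcm2 is also in the S phase list below, so its call counts in both lists. Oip5, which helps prepare centromeres for new CENP-A, rose from 1.15 ± 0.159 to 2.89 ± 0.641 TPM (1.05, limma adjusted p = 0.00454). Nap1l1, which carries H2A and H2B, fell from 421 ± 24.8 to 288 ± 10.5 TPM, a log2 fold change of -0.51 (limma adjusted p = 0.00115). Nasp, an H1 and H3 carrier, passed the test without reaching the fold threshold (0.38, limma adjusted p = 0.0143).

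Cenpa, the centromeric H3 variant that the symbol pattern does not cover, had 22.8, 20.4, 18.8, 25.0 and 14.2 TPM in controls and 33.8, 37.6, 43.8 and 28.1 at day 5. Its log2 fold change was 0.85 ± 0.14 (SE), with a limma adjusted p of 0.00266 and no overlap between these groups. Macroh2a1 and Macroh2a2, large H2A variants linked to silent chromatin, had log2 fold changes of -0.03 and 0.03 with limma adjusted p of 0.8289 and 0.896.

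The cell cycle lists gave the setting in which these histone values stood. Of 34 S phase genes, 20 were called higher and 0 lower at day 5. Their median log2 fold change was 0.83. They included Rrm2, the ribonucleotide reductase subunit (2.69), Uhrf1, which maintains DNA methylation (2.04), Mcm6, a helicase subunit (1.99), the origin licensing factor Cdc6 (1.90), the transcription factor E2f2 (1.63) and the ubiquitin ligase adaptor Dtl (1.48). All 22 G2 and M phase genes were called higher, with a median of 2.47 and a range of 1.43 to 3.26, among them Ube2c, a ubiquitin-conjugating enzyme of the anaphase-promoting complex, at 3.26, the spindle protein Prc1 at 3.25, the survivin gene Birc5 at 2.99, cyclin B2 (Ccnb2) at 2.93 and the mitotic kinase Cdk1 at 2.92. Mki67, the gene for the proliferation antigen Ki-67, had means of 1.01 ± 0.542 TPM in controls and 10.99 ± 3.35 at day 5. Summed S phase TPM was 429.2 to 482.1 in controls and 622.2 to 778.5 at day 5, and summed G2 and M phase TPM was 29.3 to 54.3 and 209.5 to 382.8. The day 5 libraries alone can let a gene be tested, since they are as many as the filter requires. How many genes of these lists entered in that way is not given here, and calls of such genes are a description only. With TPM of at least 1 in every library, 17 S phase and 8 G2 and M phase genes were called at day 5. At day 1, 0 genes of either list were called by limma. Beside these, 0 of 31 replication-dependent histones were called higher at day 5, near the 2.42% of all genes tested that were called higher. This is a side-by-side description for which no test between the lists was run.

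**Figure D5:**
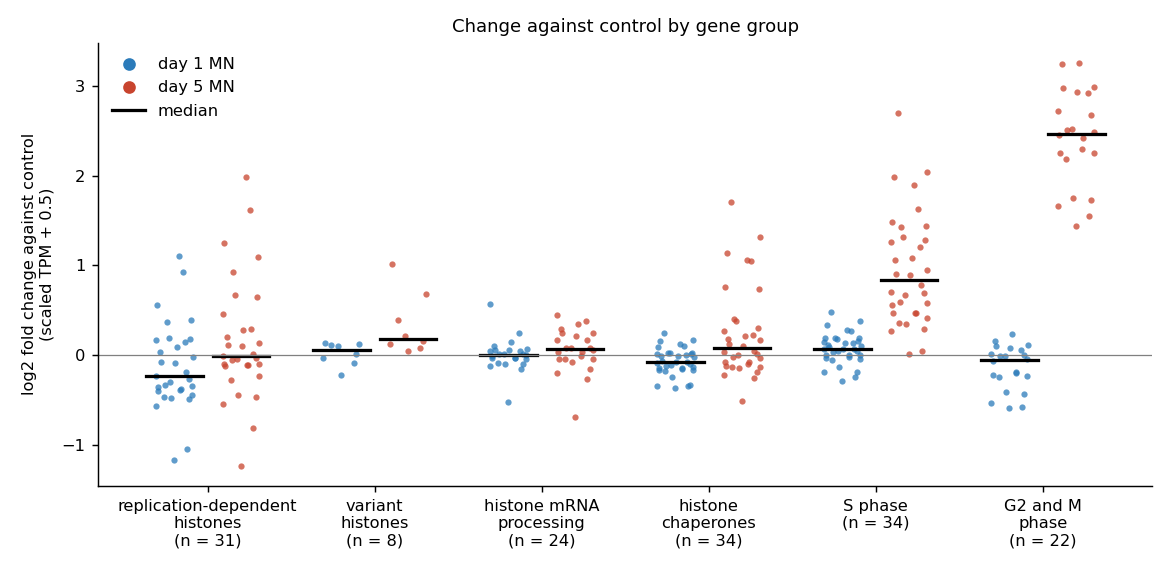
Log2 fold change against control (vertical axis, scaled TPM + 0.5) of single genes (points) at day 1 MN (blue) and day 5 MN (red) in 6 gene groups, with medians as black lines. At day 5 the medians are -0.01 for replication-dependent and 0.18 for variant histones, against 0.83 for S phase and 2.47 for G2 and M phase genes, and at day 1 every median lies between -0.24 and 0.07.

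Whether the library kit selected polyadenylated RNA was not given in the sources used here. Of 9 RNAs without a poly(A) tail that were listed as a check, 0 are in the table, so the check gave no value. What share of stem-loop histone mRNA these libraries captured was therefore not measured, and the replication-dependent TPM are levels within this protocol.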

How the data were processed

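Glomerular RNA of 13 mice was sequenced as paired-end reads. Per the labels and the paper's methods, the authors checked reads with FastQC 0.11.9, trimmed them with Trimmomatic 0.39 and quantified them with kallisto 0.46.2 against GRCm39 (Ensembl 104). They deposited TPM, with 1 value per gene symbol and library, and tested counts, not used here, with DESeq2. Deposited TPM summed to 989774 to 996064 per library, and depth was unknown, so no counting interval or floor was given. Groups came from the sample titles.

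Each library was scaled by a median-of-ratios factor (0.955 to 1.04, from 15772 genes), and values were taken as log2(scaled TPM + 0.5). Genes that reached 1 TPM in 4 or more libraries were fitted in limma 3.58.1 (R 4.3.3, eBayes with trend, 3 groups in 1 fit), with Benjamini-Hochberg adjustment within each contrast. The script was tested on simulated data. Members and gene lists were chosen with earlier results of these data known. No test compared classes or lists. Named genes were members called in any contrast, all variants, the 6 replication-dependent members with the highest mean, the largest change per family, fixed processing genes and centromeric or macro variants, and up to 6 called genes per list, of which 1 is not reported here. H3c3, H2ac24, H3c8 and Nasp were named after their values were seen, as were genes at the limits of the rule. Of 65 members, 63 were matched by symbol to the GENCODE annotation of GRCm39, and sharing was counted over 31-base words of all transcripts. Promoter windows came from RefSeq (GRCm38.p6). Plots used matplotlib. Alternatives covered pseudocounts of 0.1 and 1, unscaled TPM, quantile normalization, 3 other filters, no trend, only the compared groups, a replicate block, array weights, no fold threshold and leaving out each library.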

Additional observations from a re-analysis of the deposited data

Results flagged for a closer look

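One group of libraries held a value far from the rest by Dixon's criterion, among 65 groups of 4 or 5 values examined, where chance flags about 1 in 20 groups. It was H3c11 in control replicate 2, at 1.45 TPM, with the other 4 controls listed at 0. With 4 values tied at 0, any value above 0 meets the criterion, so the flag does not measure how far it lies. Of the members, 3 differed between the days of MN by the test of that difference, H2ac15 as a description only. The day 5 libraries of H2ac15, the group in which it was high, let it be tested. On the log2(scaled TPM + 0.5) scale, day 5 exceeded day 1 by 1.23 for H1f10, by 0.77 for H2ax and by 1.81 for H2ac15, whose size depends on the pseudocount because day 1 was listed at 0.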

How the results depend on the processing

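Depth was unknown, so the precision of low TPM rested on the spread between mice, and genes near 0 depended on the pseudocount and on single libraries. Near-identical copies limit values of single replication-dependent genes. The call of H2ax at day 5, against control and against day 1, was kept under all 25 alternatives, and that of H2ac8 under the 24 that tested it (it was not tested with TPM of at least 1 in every library). The median change of replication-dependent histones at day 5 stayed between -0.08 and 0.05, and that of variants between 0.14 and 0.21.

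The number of members called at day 5 was 5 with adjusted p alone and 2 to 4 without 1 library. Between the days it was 1 to 4 without 1 library, and it was 1, H2ax, without day 1 MN replicate 2 or day 5 MN replicate 3. At day 1 it was 0 under every alternative. With TPM of at least 1 in every library, 3 chaperones and 8 G2 and M phase genes were called. How many genes of each list that filter tested is not given here. With adjusted p alone, 8 chaperones and 1 histone mRNA processing gene were called, and 1 such gene was called with array quality weights, with the replicate block and without day 5 MN replicate 4 (range without 1 library 0 to 1). The cause was not tested, apart from the stricter filter, which tests fewer genes.

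Same-numbered libraries did not deviate together (correlations of -0.06 to 0.09 over 12 pairs, 0 above 0.1), so the replicate numbers were taken as names. With the replicate block, 2 members were called at day 5 (H2ac8 and H2ax), 4 between the days (H4c18 added, 2.26, limma adjusted p = 0.0190) and 0 at day 1, and H1f10 at day 5 was 0.84 (limma adjusted p = 0.0788). H3c11 was called at day 5 with array quality weights (limma adjusted p = 0.0412), without control replicate 2 (0.0220) and without day 5 MN replicate 4 (0.0421). These calls are a description only, since the day 5 libraries of H3c11 let it be tested. H1f2 was called at day 5 without day 5 MN replicate 2 (0.50, limma adjusted p = 0.0168). H2ac15 lost its call between the days with a pseudocount of 0.1 (limma adjusted p = 0.0525). Without control replicate 4 it was called at day 5 (limma adjusted p = 0.0296), with only day 5 libraries left at 1 TPM or more. The calls of H2ac15 are thus a description only. H1f10 lost its call between the days without day 1 MN replicate 2 (limma adjusted p = 0.0522) and without day 5 MN replicates 2 (0.0536) or 3 (0.0507).

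The sign of some small log2 changes that were not called turned. With TPM as deposited, day 1 gave -0.037 for H3f3a and -0.014 for H2ac19. With quantile normalization, day 5 gave -0.027 for H3f3b and 0.004 for H2bc18. With the replicate block, H2az2 and H2bc8 at day 1 were 0.002 and 0.147, and H2ac19 at day 5 was 0.007. With array weights, H2bc18 at day 5 was 0.024. Without 1 library, the day 1 ranges were -0.13 to 0.03 for H2az2, -0.014 to 0.033 for H3f3a, -0.073 to 0.1 for H2ac19, -0.009 to 0.166 for H1f2, -0.157 to 0.05 for H4c8, -0.802 to 0.232 for H2ac10 and -0.316 to 0.194 for H2bc8. At day 5 they were -0.015 to 0.128 for H2aj, -0.005 to 0.093 for H3f3b, -0.166 to 0.007 for H2ac19, -0.202 to 0.003 for H2aw and -0.174 to 0.122 for H2bc18. Between the days they were -0.405 to 0.014 for H2ac8, -0.11 to 0.033 for H2aj, -0.144 to 0.026 for H3f3b and -0.015 to 0.321 for H2aw.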
